A study of Mus musculus with 14 samples.

Results

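The axon guidance ligands and receptors were followed through mouse hippocampus and heart at 2 ages. The genes were chosen by gene symbol: semaphorins (classes 3 to 7), plexins, neuropilins, ephrins, Eph receptors, Slits, Robos, netrins, Unc5 receptors and Dcc. Earlier results of these data were known when they were chosen. The 67 of them that were measured by a probe set naming only that gene stood among 18194 such genes, 35 as ligands and 32 as receptors. All animals were C57/BL6. The groups were hippocampus of 10 weeks old males (2 samples, each on 2 technical arrays), hippocampus of pups 7 days old (3 samples), heart of 10 weeks old males (2 samples, each on 2 technical arrays) and heart of pups 7 days old (3 samples), with no treatment or allele in any group. The sex of the pups was not given. The study asked how far the transcriptomes of a brain and a non-brain tissue differ between young and adult animals.

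Each value is a deposited log2 expression value of the brightest probe set of a gene, and technical arrays of an adult sample were averaged, which left 10 samples. Differences are on the log2 scale, adult minus pup or hippocampus minus heart, with the standard error (SE) of a limma fit to the 4 groups. A gene passed when its Benjamini-Hochberg adjusted p over all genes was below 0.05. Adult RNA was purchased as total RNA and pup RNA was isolated as mRNA, so age and RNA source cannot be told apart. The 18 hybridization control probe sets averaged 10.80 in adult hippocampus, 13.15 in pup hippocampus, 10.73 in adult heart and 13.16 in pup heart, while array medians averaged 8.85, 8.75, 8.96 and 8.81 in those groups. Other labels count the 4 adult arrays of a tissue as separate samples, and nothing says that the adult samples came from separate animals, so the p-values measure only the spread between these samples. These are whole tissues, in which fewer cells of a type and less RNA per cell cannot be told apart.

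Guidance cues steer growing axons by attraction or repulsion. Ephrins, held in the membrane, bind Eph receptor tyrosine kinases on neighbouring cells, and both sides can signal. Semaphorins act through plexins, and the secreted class also needs neuropilins. Slits repel through Robo receptors, and netrins attract through Dcc or repel through Unc5 receptors. In the hippocampus the same families guide entorhinal and mossy fibre axons and later act at synapses, and in the heart they take part in vessel patterning, in valve and septum formation and in sympathetic innervation.

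The guidance genes did not move as a block in either tissue. In the hippocampus, 6 of the 67 were higher and 4 lower in adults than in pups, and 57 did not pass, beside 8.63% higher and 7.44% lower among all genes. In the heart, 12 were higher and 6 lower in adults than in pups and 49 did not pass, beside 11.2% and 9.38% of all genes. Between tissues, pup hippocampus had 6 higher and 3 lower than pup heart (8.27% and 7.43% of all genes), and 4 were higher and 8 lower in adult hippocampus than in adult heart (9.46% and 10.2%). As shares of the 67, these were 8.96% and 5.97%, 17.9% and 8.96%, 8.96% and 4.48%, and 5.97% and 11.9%, with the higher share first in each comparison. The median difference of the 67 genes was 0.16 for age in the hippocampus, 0.11 for age in the heart, -0.06 between pup tissues and 0.19 between adult tissues, beside 0.10, 0.09, -0.10 and -0.03 over all genes. Of the 67 genes, 32 passed at least 1 of the 5 tests on the brightest probe set, a count that was not taken over all genes. In every age or tissue call the samples of the compared groups did not overlap, which is common in groups this small. Over all genes, called or not, hippocampus age had 31.3% wholly above and 23.8% wholly below. Heart age had 26.7% and 22%, pup tissues 13.8% and 17.9%, and adult tissues 31.4% and 34.5%. In the plot of age differences, 43 genes passed neither age test nor the test of the difference between tissues.

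**Figure D1:**
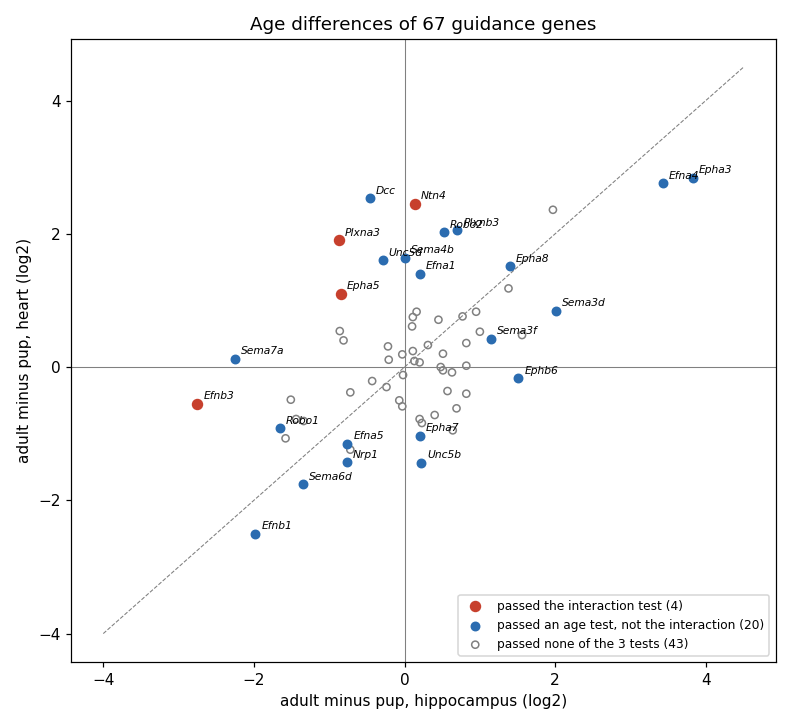
Age differences (adult minus pup, log2) of the 67 guidance genes in hippocampus (x axis) and heart (y axis), 1 point per gene, with a dashed line where both would be equal. Of the genes that passed in both tissues, Epha3, Efna4 and Epha8 lie to the upper right and Efnb1 to the lower left. Sema4d, at 1.97 in hippocampus and 2.36 in heart, lies farther out than Epha8 but passed neither age test. Plxna3, Ntn4, Efnb3 and Epha5, which passed the test of the difference between tissues, lie away from the line.

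Ephrins and Eph receptors held the largest age differences in both tissues. The A ephrins, anchored to the membrane by a lipid, gave 1 higher and 0 lower of 5 in adult hippocampus and 2 higher and 1 lower of 5 in adult heart. The transmembrane B ephrins gave 0 higher and 2 lower of 3 in adult hippocampus and 0 higher and 1 lower of 3 in adult heart. Of 9 EphA receptors, 2 were higher and 0 lower in adult hippocampus, and 3 were higher and 1 lower in adult heart. Of 4 EphB receptors, 1 was higher in adult hippocampus and none passed in heart.

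Epha3 is a receptor for A ephrins known for its part in retinal axon mapping and in the endocardial cushions. It showed the largest age difference of all 67 on the brightest probe sets. Epha3 read 12.21 and 12.80 in adult hippocampi, against 8.59, 8.88 and 8.56 in pup hippocampi. In the hearts Epha3 read 12.32 and 10.85 in adults, against 8.20, 8.36 and 9.68 in pups. Both adult groups lay wholly above the pups. The differences were 3.83 ± 0.52 (SE, adjusted p = 0.00291) in the hippocampus and 2.84 ± 0.52 (SE, adjusted p = 0.00661) in the heart. The other Epha3 probe sets gave smaller values. In the hippocampus 1426057_a_at gave 0.39 (adjusted p = 0.309), 1425574_at 1.22 (adjusted p = 0.0553) and 1425575_at 1.23 (adjusted p = 0.0121). In the heart, in the same order, they gave 1.09 (adjusted p = 0.0133), 1.46 (adjusted p = 0.023) and 0.01 (adjusted p = 0.982). On the brightest probe set, the lower adult heart sample was a mean of arrays that read 12.82 and 8.89, so a single array made that value low. Efna4, an A ephrin, followed the same course, with 13.91 and 12.40 in adult hippocampi, against 9.36, 10.33 and 9.47 in pup hippocampi, and 12.39 and 13.28 in adult hearts, against 10.50, 10.38 and 9.35 in pup hearts. Its differences were 3.43 ± 0.55 (SE, adjusted p = 0.00504) and 2.76 ± 0.55 (SE, adjusted p = 0.00903). Efna4 was measured by 1 probe set, of a type that can match several transcripts, so it has no value from a probe set outside that type. Here too technical arrays parted: the lower adult hippocampus sample came from arrays at 14.14 and 10.66, and the higher adult heart sample from arrays at 14.20 and 12.37. Epha8, a further EphA receptor, read 11.98 and 11.29 in adult hippocampi, against 10.15, 10.24 and 10.32 in pup hippocampi, and 11.84 and 11.68 in adult hearts, against 10.22, 9.98 and 10.55 in pup hearts. Its differences were 1.40 ± 0.27 (SE, adjusted p = 0.011) and 1.51 ± 0.27 (SE, adjusted p = 0.00586), nearly the same size in both tissues. The Epha8 arrays read 12.18 and 11.79 in the first adult hippocampus sample and 10.61 and 11.97 in the second. In the adult hearts they read 12.73 and 10.95 in the first sample and 10.82 and 12.54 in the second. The close adult heart values are thus means of arrays that lay apart.

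The opposite course in both tissues was seen in Efnb1, a B ephrin linked to craniofacial development. It read 10.51 and 10.71 in adult hippocampi, against 12.82, 12.38 and 12.58 in pup hippocampi, and 10.39 and 10.45 in adult hearts, against 12.84, 12.31 and 13.60 in pup hearts, with adults wholly below pups. Its differences were -1.98 ± 0.35 (SE, adjusted p = 0.00763) and -2.50 ± 0.35 (SE, adjusted p = 0.00231). Another Efnb1 probe set fell in adults as well, with differences of -1.40 (adjusted p = 0.0236) in the hippocampus and -2.17 (adjusted p = 0.00269) in the heart. The remaining one, 1418285_at, the only one whose name does not mark it as able to match several transcripts, gave -0.90 (adjusted p = 0.115) in the hippocampus and 0.15 (adjusted p = 0.795) in the heart. The heart call thus rests on probe sets named _a_at. These, with names in _s_at and _x_at, are called the shared type here. All of them named 1 gene, and a match to other genes was not tested.

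These 4 genes passed in the same direction in both tissues, so their promoters are shown. Each run covers 250 bases before the start of transcription and 50 after it, from RefSeq on GRCm38.p6, in which 57 of the 67 genes had 73 promoters. Capitals mark the GC box GGGCGG, the E-box CACGTG and the TATA motif TATAAA, searched on both strands. They lie at chr3:89337979-89338278, minus strand (Efna4), chr16:63864126-63864425, minus strand (Epha3), chr4:136956767-136957066, minus strand (Epha8) and chrX:99135811-99136110, plus strand (Efnb1).
Efna4: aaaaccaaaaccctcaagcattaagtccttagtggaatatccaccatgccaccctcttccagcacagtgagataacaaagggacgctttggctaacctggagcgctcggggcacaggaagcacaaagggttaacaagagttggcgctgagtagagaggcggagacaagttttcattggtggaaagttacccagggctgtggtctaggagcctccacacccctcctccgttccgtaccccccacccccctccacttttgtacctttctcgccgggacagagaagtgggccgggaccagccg
Epha3: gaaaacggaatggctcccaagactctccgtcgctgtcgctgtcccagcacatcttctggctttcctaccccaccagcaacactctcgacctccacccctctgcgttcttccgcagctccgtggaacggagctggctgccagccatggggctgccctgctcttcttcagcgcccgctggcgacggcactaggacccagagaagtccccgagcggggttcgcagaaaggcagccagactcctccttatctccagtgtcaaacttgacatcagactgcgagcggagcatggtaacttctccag
Epha8: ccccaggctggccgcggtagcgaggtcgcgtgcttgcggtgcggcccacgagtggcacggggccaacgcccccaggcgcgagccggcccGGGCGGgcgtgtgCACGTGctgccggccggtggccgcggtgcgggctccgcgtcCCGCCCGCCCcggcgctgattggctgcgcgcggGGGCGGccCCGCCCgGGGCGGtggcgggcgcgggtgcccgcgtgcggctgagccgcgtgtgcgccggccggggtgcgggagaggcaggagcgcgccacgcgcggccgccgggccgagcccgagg
Efnb1: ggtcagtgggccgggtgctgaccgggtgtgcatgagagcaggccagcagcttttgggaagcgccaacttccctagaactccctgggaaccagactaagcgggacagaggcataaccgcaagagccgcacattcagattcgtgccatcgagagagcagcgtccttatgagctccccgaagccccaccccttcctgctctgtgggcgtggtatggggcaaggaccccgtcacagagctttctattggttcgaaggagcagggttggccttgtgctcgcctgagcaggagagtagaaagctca
The Efna4, Epha3 and Efnb1 runs held none of these motifs, and Epha8 held 6 GC boxes and 1 E-box. Their GC content was 55.7% for Efna4, 60.7% for Epha3, 84.3% for Epha8 and 59.7% for Efnb1, with 11, 18, 56 and 14 CpG dinucleotides. Among the 73 promoters of guidance genes, 72.6% held a GC box, 6.85% the E-box and 2.74% the TATA motif, against 35.7%, 7.15% and 13.6% of all 32851 promoters. The median GC content was 64.3% in the guidance genes' promoters and 52.7% in all.

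Efnb3, a B ephrin that repels axons at the midline, fell in the hippocampus. It read 11.98 and 12.57 in adult hippocampi, against 15.14, 14.84 and 15.09 in pup hippocampi, a difference of -2.75 ± 0.29 (SE, adjusted p = 0.00121). The hearts read 11.55 and 11.93 in adults, against 12.37, 11.91 and 12.61 in pups, with a difference of -0.55 ± 0.29 (SE, adjusted p = 0.216) that did not pass. Pup hippocampus exceeded pup heart by 2.73 ± 0.26 (SE, adjusted p = 0.000124), and adult hippocampus differed from adult heart by 0.54 ± 0.32 (SE, adjusted p = 0.284), which did not pass. The pup hippocampi stood above every other sample, and the other groups lay within about the same range.

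Ephb6, a receptor without kinase activity, read 11.30 and 11.81 in adult hippocampi, against 9.66, 10.48 and 10.00 in pup hippocampi, a difference of 1.51 ± 0.42 (SE, adjusted p = 0.0401). The second adult sample was a mean of arrays at 10.53 and 13.09. In the hearts Ephb6 read 11.44 and 10.14 in adults, against 11.34, 10.69 and 10.85 in pups, and the groups overlapped. Efna5, which sets up topographic maps with EphA receptors, read 8.52 and 8.60 in adult hearts, against 10.21, 9.07 and 9.86 in pup hearts, a difference of -1.15 ± 0.34 (SE, adjusted p = 0.042). In the hippocampus it read 8.75 and 9.04 in adults, against 9.51, 9.47 and 9.99 in pups, and did not pass (difference -0.76 (adjusted p = 0.163)). Epha7, a receptor for A ephrins, read 13.94 and 13.58 in adult hearts, against 14.87, 14.73 and 14.77 in pup hearts, with a difference of -1.03 ± 0.29 (SE, adjusted p = 0.0344). The hippocampi read 14.73 and 14.21 in adults, against 13.88, 14.27 and 14.67 in pups, with overlap. Epha7 in the heart turned to 0.21 when only probe sets not marked as shared were used, and a probe set of that kind, 1451991_at, was higher in hippocampus than in heart by 2.74 (adjusted p = 4.54e-05) in pups and 1.84 (adjusted p = 0.00235) in adults. Efna1, an A ephrin of vessels, was higher in adult than in pup heart by 1.40 (adjusted p = 0.00724) and lower in adult hippocampus than in adult heart, with a difference of -1.59 (adjusted p = 0.00549). The other Efna1 probe set, 1416895_at, gave -0.33 (adjusted p = 0.631) and -0.13 (adjusted p = 0.882) in these comparisons. Efna1 lay at percentile 14 of all genes and was not tested with low values left out.

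Epha5, a receptor abundant in forebrain neurons, had age differences of opposite sign in the tissues. It read 12.51 and 13.05 in adult hippocampi, against 13.68, 13.65 and 13.57 in pup hippocampi, and 13.67 and 14.03 in adult hearts, against 12.33, 13.25 and 12.69 in pup hearts. The heart difference of 1.10 ± 0.30 (SE, adjusted p = 0.0339) passed, and the hippocampus difference of -0.85 ± 0.30 (SE, adjusted p = 0.0892) did not. Other Epha5 probe sets gave another picture of the tissues. 1435286_at averaged 9.98 in adult hippocampus, 13.10 in pup hippocampus, 8.23 in adult heart and 9.36 in pup heart. It was lower in adult than in pup hippocampus, with a difference of -3.12 (adjusted p = 0.00281), and higher in hippocampus than in heart by 3.75 (adjusted p = 0.000171) in pups and 1.75 (adjusted p = 0.0309) in adults. 1437920_at did likewise, at -1.33 (adjusted p = 0.0262), 3.18 (adjusted p = 6.87e-05) and 1.58 (adjusted p = 0.0132). The brightest Epha5 probe set, in contrast, was lower in adult hippocampus than in adult heart (-1.07 (adjusted p = 0.0519) over genes, -1.07 (adjusted p = 0.0461) over probe sets).

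Between the tissues, Efna2 was higher in adult hippocampus than in adult heart on its brightest probe set. It read 11.59 and 12.32 in adult hippocampi, against 10.00 and 10.23 in adult hearts, a difference of 1.84 ± 0.56 (SE, adjusted p = 0.0479). In pups it read 10.80, 10.01 and 10.36 in hippocampi, against 9.14, 10.75 and 9.02 in hearts, which overlapped. The other Efna2 probe set, 1444606_at, gave -0.68 (adjusted p = 0.152) between adult tissues and 1.02 (adjusted p = 0.023) between pup tissues. Epha4, a receptor for ephrins of both classes that is known at hippocampal synapses, passed no test on its brightest probe set. It read 13.71 and 14.36 in adult hippocampi, 12.50, 12.79 and 12.68 in pup hippocampi, 13.98 and 13.97 in adult hearts and 14.47, 12.81 and 11.11 in pup hearts, and the pup hearts spanned more than the difference between any groups. Its other probe sets differed in direction between adult tissues: 1429021_at gave 1.73 (adjusted p = 0.0154) and 1421929_at gave -1.48 (adjusted p = 0.0329), hippocampus minus heart. In pups 1429021_at was also higher in hippocampus than in heart, by 3.42 (adjusted p = 9.82e-05), and its hippocampus age difference was -1.90 (adjusted p = 0.011). Ephb4 and its ligand Efnb2, which mark veins and arteries, did not pass in any test on their brightest probe sets. Ephb4 read 9.19 and 11.26 in adult hippocampi, 10.22, 11.42 and 11.59 in pup hippocampi, 11.97 and 11.83 in adult hearts and 11.22, 11.12 and 11.72 in pup hearts. Efnb2 read 15.36 and 15.39, 15.05, 15.02 and 15.10, 15.62 and 15.62 and 15.25, 15.35 and 15.27 in the same order, close to the arrays' maximum of 16. A dimmer Efnb2 probe set, 1449548_at, was higher in adult than in pup hippocampus by 1.19 (adjusted p = 0.0109) and higher in adult hippocampus than in adult heart by 1.25 (adjusted p = 0.00789).

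Single samples decided part of these calls. In the hippocampus age comparison, leaving out 1 sample at a time ended the calls of Efna4 without adult hippocampus 1 (adjusted p = 0.053), Efnb1 without adult hippocampus 1 (adjusted p = 0.0676), Epha8 without adult hippocampus 1 (adjusted p = 0.0937) and Ephb6 without adult hippocampus 1 or 2, pup hippocampus 1 or 3 (adjusted p 0.0982 to 0.216). In the heart it ended those of Efna1 without adult heart 1 (adjusted p = 0.0703), Efna4 without adult heart 2 (adjusted p = 0.0781), Epha3 without adult heart 1 (adjusted p = 0.0649), Epha8 without adult heart 1 (adjusted p = 0.0539), Efna5 without adult hippocampus 1 or 2, pup hippocampus 1 or 2, adult heart 1 or 2, pup heart 1 or 3 (adjusted p 0.0592 to 0.181), Epha7 without pup hippocampus 2, adult heart 1 or 2, pup heart 1 or 3 (adjusted p 0.0547 to 0.197) and Epha5 without pup hippocampus 1, 2 or 3, adult heart 1 or 2, pup heart 1 or 3 (adjusted p 0.0503 to 0.191). Between adult tissues it ended that of Efna2 without adult hippocampus 1 or 2, pup hippocampus 1, 2 or 3, adult heart 1 or 2, pup heart 1 (adjusted p 0.0504 to 0.235). The calls of Epha3 and Efnb3 in the hippocampus, Efnb1 in the heart and Efnb3 between pup tissues passed in all 10 such fits.

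**Figure D2:**
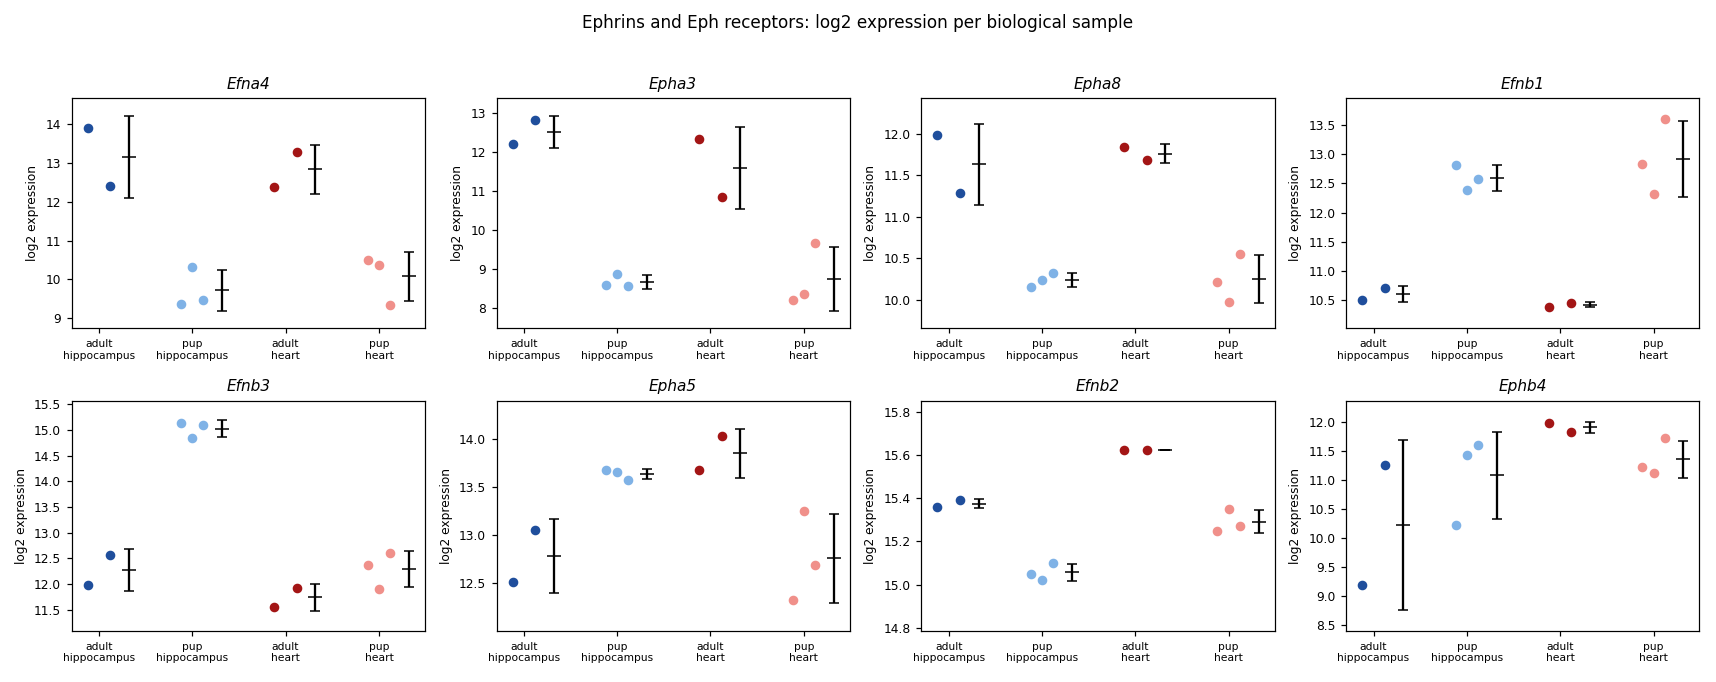
Log2 expression (y axis) of 8 ephrins and Eph receptors in adult hippocampus, pup hippocampus, adult heart and pup heart, 1 point per biological sample, with the mean and SD as black bars (n = 2 adult, n = 3 pup). Efna4, Epha3 and Epha8 sit higher and Efnb1 lower in adults of both tissues, Efnb3 is high in pup hippocampus, and Efnb2 and Ephb4 did not pass.

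Of 20 semaphorins, 2 were higher and 1 lower in adult than in pup hippocampus, and 1 was higher and 1 lower in adult than in pup heart. Sema3d, a secreted semaphorin with a known part in cardiac neural crest and pulmonary vein patterning, read 10.63 and 10.84 in adult hippocampi, against 8.21, 8.72 and 9.23 in pup hippocampi, a difference of 2.01 ± 0.42 (SE, adjusted p = 0.0139). The adults lay wholly above the pups. In the hearts it read 10.08 and 8.81 in adults, against 8.26, 8.77 and 8.78 in pups, and the brightest probe set did not pass (0.84 (adjusted p = 0.191)), whereas the other Sema3d probe set, 1429459_at, was lower in adult hearts, with a difference of -1.52 (adjusted p = 0.00379). Sema3f, a repellent of hippocampal axons, read 11.27 and 11.46 in adult hippocampi, against 10.51, 10.21 and 9.93 in pup hippocampi, a difference of 1.15 ± 0.28 (SE, adjusted p = 0.0245). That probe set is of a type that can match several transcripts. Of the other Sema3f probe sets, 1420508_at gave 0.22 (adjusted p = 0.7) there and was higher in adult than in pup heart by 2.03 (adjusted p = 0.00356) and lower in hippocampus than in heart, with differences of -1.12 (adjusted p = 0.0319) in pups and -2.94 (adjusted p = 0.00077) in adults. Sema7a, a lipid-anchored semaphorin that promotes axon growth, read 10.86 and 11.25 in adult hippocampi, against 12.91, 12.65 and 14.36 in pup hippocampi, a difference of -2.25 ± 0.51 (SE, adjusted p = 0.019). Its adult heart samples were means of arrays that lay apart, at 13.59 and 10.80 and at 13.21 and 10.38. The other Sema7a probe set, 1422040_at, gave 0.60 (adjusted p = 0.158) for hippocampus age, the opposite sign.

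In the heart, Sema4b, a transmembrane semaphorin, read 12.89 and 12.64 in adults, against 11.75, 11.46 and 10.17 in pups, a difference of 1.64 ± 0.47 (SE, adjusted p = 0.0377). In the hippocampus it read 10.57 and 10.08 in adults, against 10.18, 9.91 and 10.84 in pups. The adult hearts stood above all other samples, and adult hippocampus was lower than adult heart, with a difference of -2.44 ± 0.51 (SE, adjusted p = 0.0108). The other Sema4b probe set, 1427586_at, had the opposite signs, -0.66 (adjusted p = 0.176) for age in the heart and 1.01 (adjusted p = 0.0649) between adult tissues. Sema6d, which acts through plexin A1 in the forming heart of the chick, read 10.42 and 10.36 in adult hearts, against 11.73, 12.03 and 12.70 in pup hearts, with a difference of -1.76 ± 0.49 (SE, adjusted p = 0.0346). The first of these adult samples was a mean of arrays at 12.40 and 8.44. A second probe set, 1453055_at, was also lower in adults, with differences of -2.33 (adjusted p = 0.00131) in the heart and -1.25 (adjusted p = 0.0231) in the hippocampus.

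Sema6b, a transmembrane semaphorin that binds plexin A4, was higher in hippocampus at both ages. It read 11.67 and 12.08 in adult hippocampi, against 9.60 and 9.32 in adult hearts, and 11.68, 11.17 and 11.07 in pup hippocampi, against 9.98, 9.88 and 9.60 in pup hearts. All hippocampi lay above all hearts. The differences were 2.41 ± 0.29 (SE, adjusted p = 0.00096) in adults and 1.49 ± 0.24 (SE, adjusted p = 0.00289) in pups, which are 5.32-fold and 2.8-fold. Sema4f, another transmembrane semaphorin, did not pass on its brightest probe set, but 1439768_x_at, of the shared type, was higher in hippocampus by 3.92 (adjusted p = 9.16e-05) in adults and 5.46 (adjusted p = 8.07e-07) in pups. Sema5a, which binds plexin B3, read 13.39, 12.80 and 12.42 in pup hippocampi, against 11.34, 12.05 and 11.76 in pup hearts, a difference of 1.15 ± 0.28 (SE, adjusted p = 0.0242), but the mean over its 4 probe sets differed by -0.06. Sema3a, the best known growth cone repellent, read 10.47 and 10.43 in adult hippocampi, against 9.52 and 9.14 in adult hearts, and 9.66, 9.50 and 9.21 in pup hippocampi, against 9.04, 9.11 and 8.24 in pup hearts. The adult difference of 1.12 ± 0.33 (SE, adjusted p = 0.0445) passed. Another Sema3a probe set, 1420417_at, gave the opposite sign between adult tissues, -1.72 (adjusted p = 0.0185), and the mean over probe sets was -0.20. Sema3e read 15.48 and 15.57 in adult hippocampi, 15.67, 15.85 and 15.76 in pup hippocampi, 15.53 and 15.42 in adult hearts and 15.87, 15.64 and 15.82 in pup hearts, near the arrays' maximum in every group. Dimmer Sema3e probe sets were higher in hippocampus than in heart at both ages, 1419717_at by 1.57 (adjusted p = 0.00423) in adults and 2.07 (adjusted p = 0.000214) in pups, and 1442226_at by 1.00 (adjusted p = 0.0417) in adults and 1.58 (adjusted p = 0.0019) in pups.

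Among the receptors, 0 of 9 plexins passed for age in the hippocampus, and 2 were higher in adult than in pup heart. Plxna3, which forms a Sema3f receptor with Nrp2 in hippocampal axon pruning, read 11.76 and 12.34 in adult hippocampi, against 12.83, 12.74 and 13.20 in pup hippocampi, and 11.87 and 11.76 in adult hearts, against 10.43, 9.86 and 9.45 in pup hearts. The pup hearts were the low group. The heart age difference was 1.90 ± 0.32 (SE, adjusted p = 0.00497), pup hippocampus exceeded pup heart by 3.01 ± 0.29 (SE, adjusted p = 0.000133), and adult hippocampus differed from adult heart by 0.24 ± 0.36 (SE, adjusted p = 0.703), which did not pass. Plxnb3, a Sema5a receptor, read 9.11 and 8.87 in adult hippocampi, 8.42, 8.41 and 8.04 in pup hippocampi, 11.25 and 11.39 in adult hearts and 9.17, 9.76 and 8.88 in pup hearts, highest in adult hearts. Its heart age difference was 2.05 ± 0.29 (SE, adjusted p = 0.00235), and hippocampus was below heart, with differences of -2.33 ± 0.32 (SE, adjusted p = 0.00155) in adults and -0.98 ± 0.26 (SE, adjusted p = 0.0317) in pups. The Plxnb3 probe set is of the shared type, and the other one, 1418750_at, gave 0.07 (adjusted p = 0.955) for age in the heart and 0.89 (adjusted p = 0.417) between pup tissues. Plxnc1, the receptor of Sema7a, read 13.83, 15.23 and 15.43 in pup hippocampi, against 11.77, 13.77 and 13.28 in pup hearts, with a difference of 1.89 ± 0.55 (SE, adjusted p = 0.0488). A second Plxnc1 probe set, 1423213_at, was higher in hippocampus by 2.02 (adjusted p = 0.000217) in pups and 1.54 (adjusted p = 0.00404) in adults, while 1450906_at was lower in adult hippocampus than in adult heart, with a difference of -2.06 (adjusted p = 0.00564).

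Nrp2, the neuropilin for Sema3f, read 12.07, 11.92 and 12.38 in pup hippocampi, against 10.13, 9.54 and 10.73 in pup hearts, and 11.37 and 11.26 in adult hippocampi, against 10.81 and 10.27 in adult hearts. The pup difference of 1.99 ± 0.31 (SE, adjusted p = 0.00253) passed and the adult one of 0.77 ± 0.38 (SE, adjusted p = 0.199) did not. The other Nrp2 probe sets gave 0.35 (adjusted p = 0.351), 0.25 (adjusted p = 0.623) and -0.81 (adjusted p = 0.0724) between pup tissues. Nrp1, the neuropilin for Sema3a and a receptor for vascular growth factor, read 10.23 and 10.47 in adult hearts, against 11.68, 11.33 and 12.34 in pup hearts, and 10.29 and 10.14 in adult hippocampi, against 11.32, 11.02 and 10.61 in pup hippocampi. Adults were below pups in both tissues, and the heart difference of -1.43 ± 0.33 (SE, adjusted p = 0.0165) passed. A second Nrp1 probe set, 1418084_at, also fell in adult heart, with a difference of -1.23 (adjusted p = 0.0229), but 1457198_at was higher there, at 3.40 (adjusted p = 0.000979). Plxna4, which carries the Sema3a signal with Nrp1, read 12.84 and 13.54 in adult hippocampi, 12.19, 12.58 and 12.34 in pup hippocampi, 12.64 and 13.04 in adult hearts and 12.68, 12.33 and 12.43 in pup hearts and passed no test. Plxnd1, the direct receptor of Sema3e in vessels, read 9.86 and 9.89 in adult hippocampi, against 10.82, 11.75 and 11.60 in pup hippocampi, without overlap, but the difference of -1.51 ± 0.48 (SE, adjusted p = 0.062) did not pass. In the hearts Plxnd1 read 10.81 and 11.02 in adults, against 10.42, 11.61 and 12.18 in pups.

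Leaving out 1 sample at a time ended the hippocampus age calls of Sema3d without adult hippocampus 1 or 2 (adjusted p 0.0773 to 0.0863), Sema3f without adult hippocampus 1 or 2, pup hippocampus 2 or 3 (adjusted p 0.0635 to 0.134) and Sema7a without adult hippocampus 1 or 2 (adjusted p 0.0747 to 0.127) and the heart age calls of Sema4b without adult hippocampus 1 or 2, pup hippocampus 1, adult heart 1 or 2, pup heart 3 (adjusted p 0.0519 to 0.184), Sema6d without pup hippocampus 1, 2 or 3, adult heart 1 or 2, pup heart 2 or 3 (adjusted p 0.051 to 0.147) and Nrp1 without adult heart 1 or 2 (adjusted p 0.0682 to 0.112). Between pup tissues it ended the calls of Sema5a without pup hippocampus 1 or 2, pup heart 1 (adjusted p 0.0641 to 0.0767), Plxnb3 without pup hippocampus 1, 2 or 3, adult heart 1 or 2, pup heart 1 or 2 (adjusted p 0.0512 to 0.106) and Plxnc1 without adult hippocampus 1 or 2, pup hippocampus 2 or 3, adult heart 1 or 2, pup heart 1 or 3 (adjusted p 0.057 to 0.151), and between adult tissues those of Sema3a without adult hippocampus 1 or 2, pup hippocampus 1, 2 or 3, adult heart 1 or 2 (adjusted p 0.0554 to 0.212) and Sema4b without adult hippocampus 2, adult heart 1 or 2 (adjusted p 0.0501 to 0.0786). The calls of Plxna3 and Plxnb3 for age in the heart, of Sema6b in both tissue comparisons, of Plxna3 and Nrp2 between pup tissues and of Plxnb3 between adult tissues passed in all 10 fits.

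**Figure D3:**
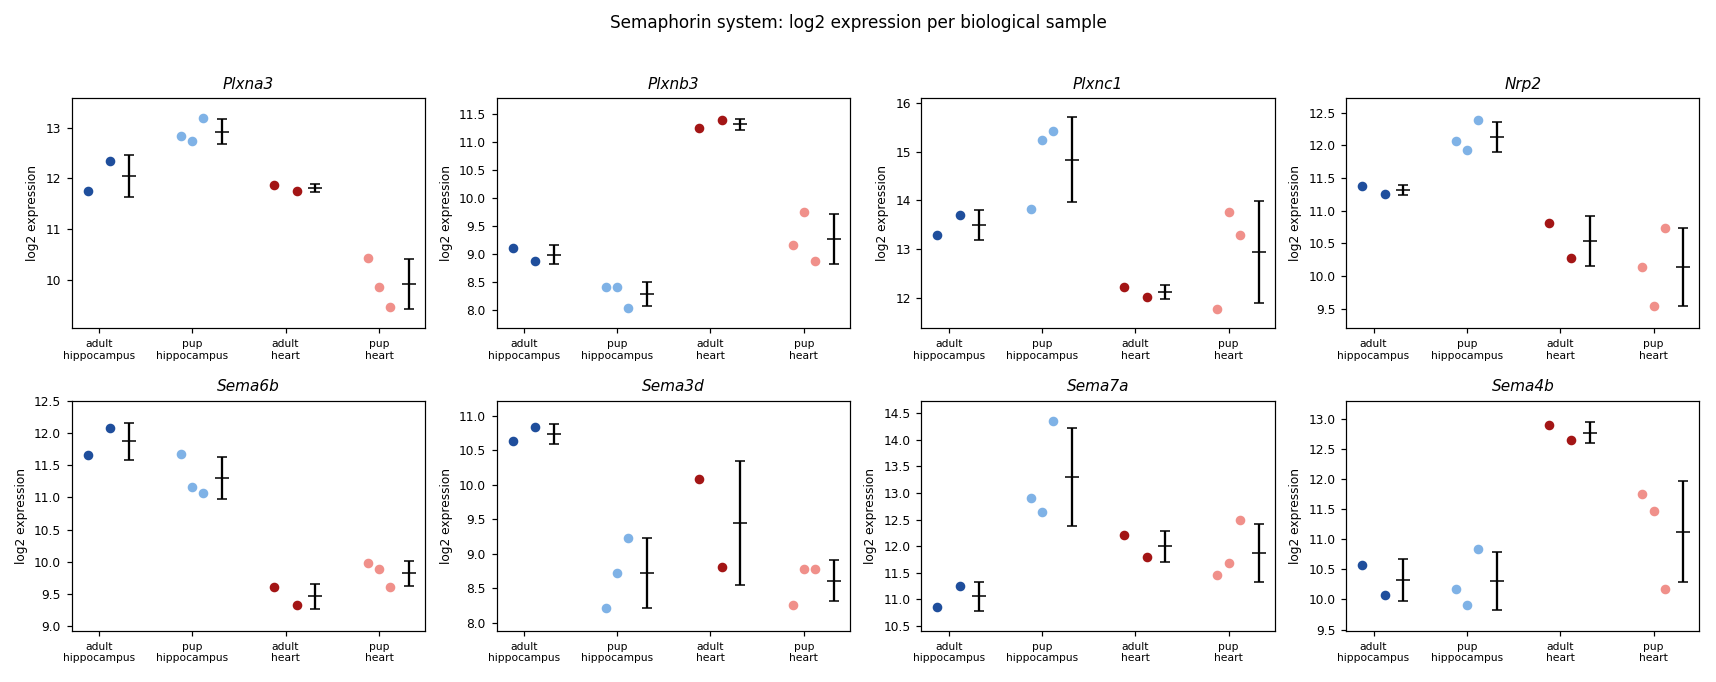
Log2 expression (y axis) of 8 genes of the semaphorin system in the 4 groups, 1 point per biological sample, with the mean and SD as black bars (n = 2 adult, n = 3 pup). Sema6b is higher in hippocampus at both ages, Plxna3 is lowest in pup heart, Plxnb3 and Sema4b are highest in adult heart, and Sema7a is highest in pup hippocampus.

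In the netrin and Slit systems, the receptors Dcc, Unc5d and Robo2 were high in adult heart on their brightest probe sets. Unc5b was lower in adult than in pup heart, and Unc5a, Unc5c, Robo1 and Robo3 did not pass for heart age. Dcc, the receptor through which netrin attracts axons, read 11.60 and 11.84 in adult hearts, against 9.89, 9.63 and 8.05 in pup hearts, and 8.30 and 7.93 in adult hippocampi, against 8.55, 9.17 and 8.01 in pup hippocampi. The adult hearts lay above all other samples. The heart age difference was 2.53 ± 0.53 (SE, adjusted p = 0.0115), and adult hippocampus was below adult heart, with a difference of -3.60 ± 0.59 (SE, adjusted p = 0.00334). The other Dcc probe sets did not share this. 1441572_at and 1440487_at were lower in adult than in pup hippocampus, with differences of -1.97 (adjusted p = 0.0116) and -1.52 (adjusted p = 0.0253), and gave -0.45 (adjusted p = 0.462) and 0.56 (adjusted p = 0.326) for age in the heart. 1440487_at was higher in pup hippocampi than in pup hearts by 1.57 (adjusted p = 0.0108).

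Ntn1, the ligand of Dcc, was lower in hippocampus than in heart at both ages on its brightest probe set. It read 8.03 and 8.34 in adult hippocampi, against 9.41 and 9.91 in adult hearts, and 8.34, 8.28 and 8.16 in pup hippocampi, against 10.06, 10.03 and 10.40 in pup hearts. The differences were -1.48 ± 0.27 (SE, adjusted p = 0.00543) in adults and -1.90 ± 0.22 (SE, adjusted p = 0.000381) in pups, and neither age difference passed. The other Ntn1 probe set, 1422987_at, gave tissue differences of -0.17 (adjusted p = 0.762) in adults and -0.35 (adjusted p = 0.428) in pups. Ntn4, a netrin of basement membranes that binds laminin, read 11.20 and 10.77 in adult hearts, against 8.31, 9.26 and 8.06 in pup hearts, and 8.71 and 8.72 in adult hippocampi, against 8.35, 8.76 and 8.61 in pup hippocampi. It was higher in adult than in pup heart by 2.45 ± 0.35 (SE, adjusted p = 0.00252), which is 5.45-fold, and lower in adult hippocampus than in adult heart, with a difference of -2.27 ± 0.39 (SE, adjusted p = 0.00408). The pups did not differ by tissue beyond their spread (0.03 (adjusted p = 0.966)), although the other Ntn4 probe set, 1439794_at, was lower in pup hippocampi than in pup hearts, with a difference of -2.06 (adjusted p = 0.00527).

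The Unc5 receptors, which turn netrin into a repellent, parted. Unc5d read 10.84 and 9.71 in adult hearts, against 8.46, 9.08 and 8.49 in pup hearts, a difference of 1.60 ± 0.35 (SE, adjusted p = 0.0127), and 8.39 and 8.66 in adult hippocampi, against 8.92, 8.79 and 8.75 in pup hippocampi. Adult hippocampus was below adult heart, with a difference of -1.75 ± 0.38 (SE, adjusted p = 0.0121). Unc5b, the Unc5 receptor of endothelial cells, went the other way, with 12.17 and 12.25 in adult hearts, against 13.38, 13.28 and 14.29 in pup hearts, a difference of -1.44 ± 0.36 (SE, adjusted p = 0.0235). In the hippocampus Unc5b read 12.59 and 13.22 in adults, against 12.45, 12.53 and 13.09 in pups, and the groups overlapped. Unc5a, a neuronal member, read 9.39 and 9.51 in adult hippocampi, against 7.85 and 8.31 in adult hearts, a difference of 1.36 ± 0.35 (SE, adjusted p = 0.0247). In pups it read 9.04, 8.78 and 8.60 in hippocampi, against 9.12, 8.48 and 9.49 in hearts, with overlap. Unc5c did not pass in any test on its brightest probe set, whereas its other probe set, 1419592_at, was higher in adult than in pup heart by 2.24 (adjusted p = 0.00268) and lower in adult hippocampus than in adult heart, with a difference of -1.77 (adjusted p = 0.00971).

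Robo2, a Slit receptor, was highest in adult hearts. It read 10.68 and 10.68 in adult hearts, against 9.10, 9.01 and 7.85 in pup hearts, and 7.67 and 7.45 in adult hippocampi, against 7.46, 6.78 and 6.87 in pup hippocampi. The heart age difference was 2.02 ± 0.39 (SE, adjusted p = 0.00772), and hippocampus was below heart, with differences of -3.12 ± 0.42 (SE, adjusted p = 0.00155) in adults and -1.62 ± 0.35 (SE, adjusted p = 0.0124) in pups. Only 1 probe set named Robo2. Robo1, which also keeps commissural axons from crossing again, read 13.65 and 13.34 in adult hippocampi, against 14.94, 15.29 and 15.22 in pup hippocampi, a difference of -1.66 ± 0.44 (SE, adjusted p = 0.0337). The first adult sample was a mean of arrays at 12.73 and 14.58. In the hearts Robo1 read 13.41 and 13.00 in adults, against 13.36, 13.94 and 15.07 in pups. Another Robo1 probe set, 1427231_at, averaged 7.57 in adult hippocampus, 10.27 in pup hippocampus, 4.29 in adult heart and 6.68 in pup heart. It was lower in adults, with differences of -2.71 (adjusted p = 0.0012) in the hippocampus and -2.39 (adjusted p = 0.00143) in the heart, and higher in hippocampus than in heart by 3.28 (adjusted p = 0.000365) in adults and 3.60 (adjusted p = 2.33e-05) in pups. Slit2, a ligand of both receptors, read 9.77 and 9.92 in adult hippocampi, 8.69, 9.52 and 9.96 in pup hippocampi, 9.92 and 9.99 in adult hearts and 9.34, 9.25 and 9.15 in pup hearts, and none of the 3 Slits passed a test on its brightest probe set. The other Slit1 probe set, 1440056_at, was higher in hippocampus than in heart by 2.94 (adjusted p = 0.000141) in adults and 2.53 (adjusted p = 3.32e-05) in pups. Among the other Slit2 probe sets, 1451430_at was higher in adult than in pup heart by 1.00 (adjusted p = 0.0175), and in pups 1424659_at was higher in hippocampus than in heart by 1.07 (adjusted p = 0.0237).

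Leaving out 1 sample at a time ended the heart age calls of Dcc without adult heart 1 or 2 (adjusted p 0.0657 to 0.0776), Unc5d without adult heart 1 (adjusted p = 0.101), Unc5b without adult heart 1 or 2 (adjusted p 0.102 to 0.125) and Robo2 without adult heart 1 or 2 (adjusted p 0.0525 to 0.0573). It ended the hippocampus age call of Robo1 without adult hippocampus 1 or 2, pup hippocampus 1, 2 or 3, adult heart 1 or 2 (adjusted p 0.0508 to 0.171), the pup tissue call of Robo2 without pup hippocampus 2 (adjusted p = 0.0515) and the adult tissue calls of Unc5a without adult hippocampus 1 or 2, adult heart 1 or 2 (adjusted p 0.0556 to 0.144) and Unc5d without adult hippocampus 1 or 2, adult heart 1 (adjusted p 0.0517 to 0.0737). The tissue calls of Ntn1 at both ages, the heart age call of Ntn4, and the adult tissue calls of Dcc, Ntn4 and Robo2 passed in all 10 fits.

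**Figure D4:**
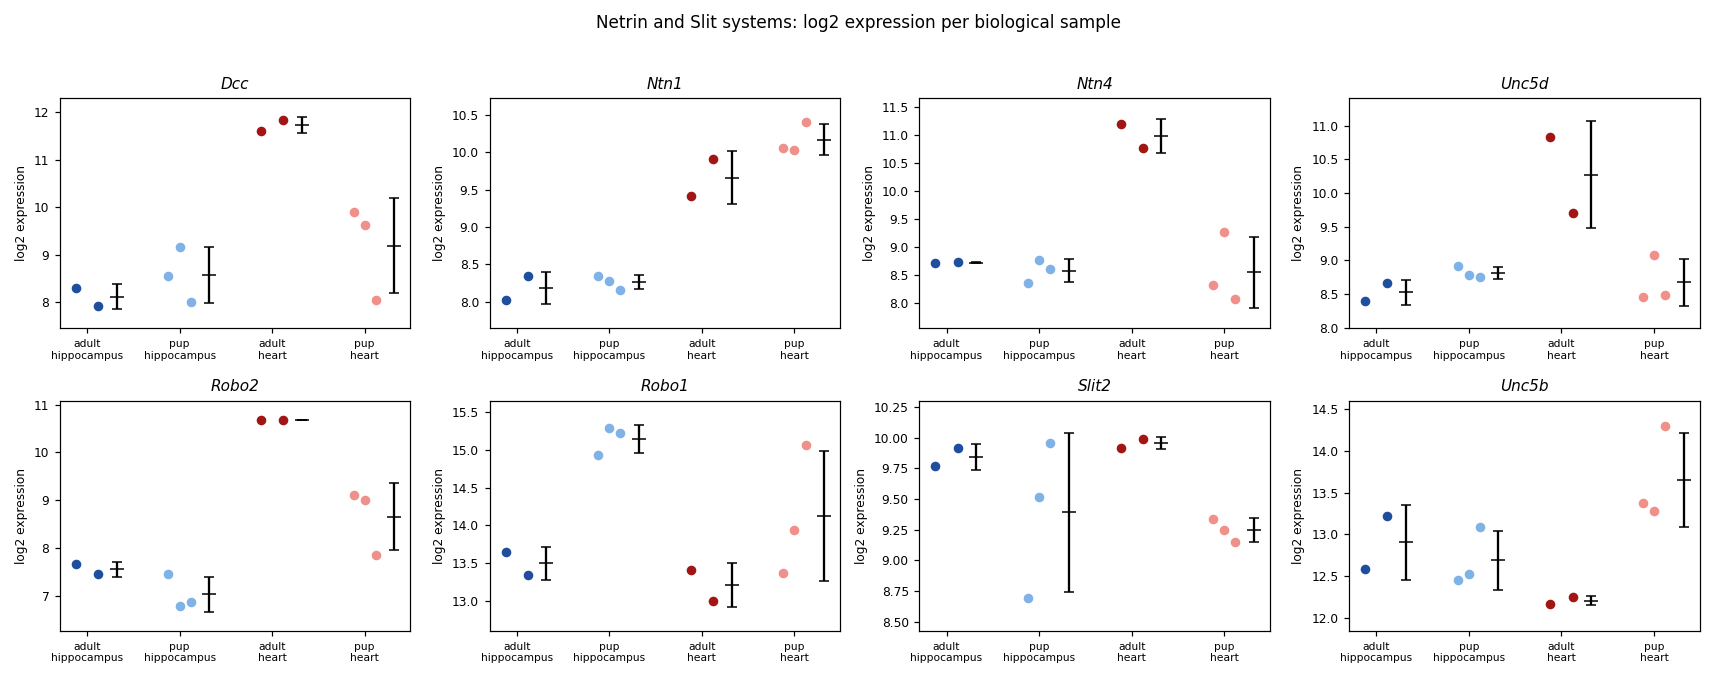
Log2 expression (y axis) of 8 genes of the netrin and Slit systems in the 4 groups, 1 point per biological sample, with the mean and SD as black bars (n = 2 adult, n = 3 pup). Dcc, Ntn4, Unc5d and Robo2 are highest in adult heart, Ntn1 is higher in heart at both ages, and Robo1 averages highest in pup hippocampus and Unc5b in pup heart.

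**Figure D5:**
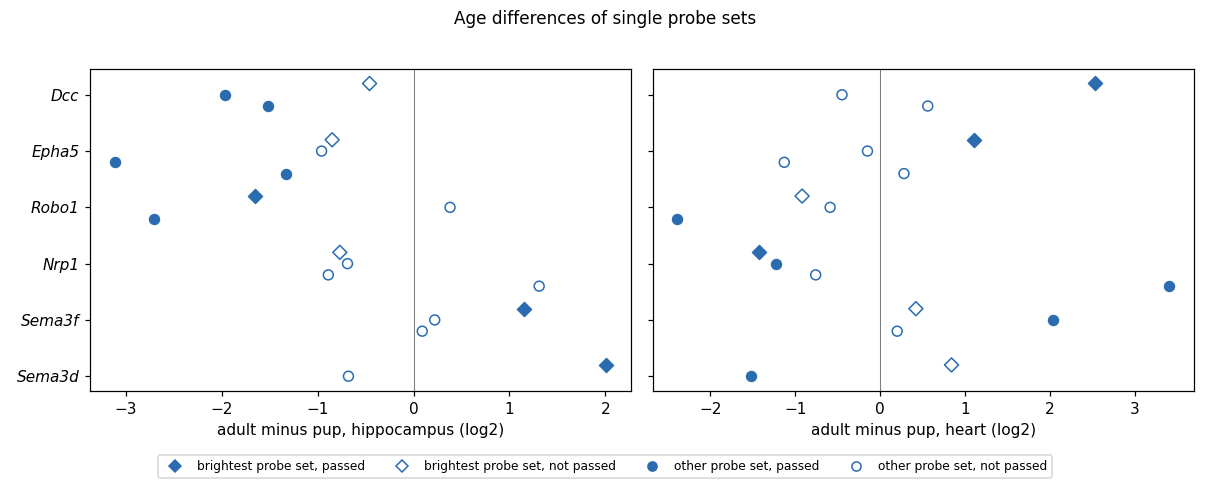
Age differences (adult minus pup, log2, x axes) of every probe set of 6 guidance genes (rows) in hippocampus (left) and heart (right), diamonds for the brightest probe set and circles for the others, filled where the probe set passed. In heart Dcc, Nrp1 and Sema3d hold probe sets on both sides of 0, and the Robo1 probe sets range between -2.71 and 0.38 in hippocampus.

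Many of these calls depended on the probe set. The 67 genes had 150 probe sets, and 45 genes had more than 1. Of the 35 genes that passed no test on the brightest probe set, 16 had another that passed at least 1: Efna3, Efnb2, Epha1, Epha4, Plxna2, Plxnb1, Sema3c, Sema3e, Sema4d, Sema4f, Sema5b, Sema6a, Sema6c, Slit1, Slit2 and Unc5c. Among genes that had several probe sets and passed on the brightest, another passed in the same direction for 3 of 6 in the hippocampus age comparison (Efnb1, Epha3 and Robo1), 4 of 14 in the heart age comparison (Efnb1, Epha3, Nrp1 and Sema6d), 1 of 6 between pup tissues (Plxnc1) and 0 of 9 between adult tissues. Another passed in the opposite direction for Nrp1 in heart age and for Epha5 and Sema3a between adult tissues.

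With the mean over a gene's probe sets in place of the brightest, the calls that ended for hippocampus age were Sema3d at 0.66 (adjusted p = 0.105), Sema3f at 0.49 (adjusted p = 0.158) and Sema7a at -0.83 (adjusted p = 0.0762). For heart age they were Efna1 at 0.53 (adjusted p = 0.195), Efna5 at -0.76 (adjusted p = 0.0907), Epha5 at 0.02 (adjusted p = 0.962), Epha7 at -0.30 (adjusted p = 0.392), Nrp1 at -0.01 (adjusted p = 0.991), Plxnb3 at 1.06 (adjusted p = 0.079), Sema4b at 0.49 (adjusted p = 0.148) and Unc5b at -1.16 (adjusted p = 0.0737). Between pup tissues they were Nrp2 at 0.44 (adjusted p = 0.118), Plxnb3 at -0.05 (adjusted p = 0.941), Plxnc1 at 0.44 (adjusted p = 0.127) and Sema5a at -0.06 (adjusted p = 0.884), and between adult tissues Efna1 at -0.86 (adjusted p = 0.0648), Efna2 at 0.58 (adjusted p = 0.163), Sema3a at -0.20 (adjusted p = 0.66) and Sema4b at -0.71 (adjusted p = 0.0624). For the difference of age differences, hippocampus minus heart, they were Epha5 at -1.59 (adjusted p = 0.0511), Ntn4 at -0.59 (adjusted p = 0.26) and Plxna3 at -1.61 (adjusted p = 0.0758). The mean also called genes that the brightest probe set did not, among them Efnb2 for hippocampus age, Unc5c for heart age, and Sema3e, Sema4f and Slit1 in both tissue comparisons.

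Whether the age difference itself differed between hippocampus and heart was tested as a contrast of the same fit. An unadjusted p below 0.05 was reached by 20 of the 67 genes, which was not counted over all genes. None of the 67 genes had a higher and 4 had a lower age difference in hippocampus than in heart, beside 1.23% higher and 2.45% lower among all genes. The 4 were Plxna3 at -2.78 ± 0.46 (SE, adjusted p = 0.0158), Ntn4 at -2.30 ± 0.50 (SE, adjusted p = 0.0414), Efnb3 at -2.19 ± 0.41 (SE, adjusted p = 0.0237) and Epha5 at -1.95 ± 0.43 (SE, adjusted p = 0.044). For Plxna3 and Ntn4 the heart value was higher in adults while the hippocampus did not pass, for Efnb3 the hippocampus was lower while the heart did not pass, and for Epha5 the signs were opposite. The other Ntn4 probe set, 1439794_at, gave 1.13 (adjusted p = 0.33) for this difference of age differences and -1.04 (adjusted p = 0.119) for age in the heart, and the other Plxna3 probe set, 1420995_at, gave -0.43 (adjusted p = 0.708) and 0.57 (adjusted p = 0.339). Dcc had a larger estimate, -2.99 ± 0.76 (SE, adjusted p = 0.0659), that did not pass. Leaving out 1 sample at a time ended the calls of Plxna3 without adult hippocampus 1, adult heart 1 or 2 (adjusted p 0.0604 to 0.0798), Ntn4 without adult hippocampus 1 or 2, pup hippocampus 1, 2 or 3, adult heart 1 or 2, pup heart 1 (adjusted p 0.0669 to 0.151), Efnb3 without adult hippocampus 1, pup hippocampus 1, 2 or 3, adult heart 1 or 2 (adjusted p 0.0518 to 0.108) and Epha5 without adult hippocampus 1 or 2, pup hippocampus 1, 2 or 3, adult heart 1 or 2, pup heart 1 or 3 (adjusted p 0.0548 to 0.158). With each adult array taken as a sample, 9 genes passed, beside 9.64% of all genes.

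The promoters of Plxna3 (chrX:74328816-74329115, plus strand) and Ntn4 (chr10:93640799-93641098, plus strand), the genes with the largest of these differences, are printed in the same way, with the same motifs in capitals.
Plxna3: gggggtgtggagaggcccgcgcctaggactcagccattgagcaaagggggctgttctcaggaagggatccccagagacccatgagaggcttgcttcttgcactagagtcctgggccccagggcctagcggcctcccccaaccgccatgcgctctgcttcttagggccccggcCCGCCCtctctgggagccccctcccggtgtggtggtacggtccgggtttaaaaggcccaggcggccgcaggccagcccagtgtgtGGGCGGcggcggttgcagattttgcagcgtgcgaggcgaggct
Ntn4: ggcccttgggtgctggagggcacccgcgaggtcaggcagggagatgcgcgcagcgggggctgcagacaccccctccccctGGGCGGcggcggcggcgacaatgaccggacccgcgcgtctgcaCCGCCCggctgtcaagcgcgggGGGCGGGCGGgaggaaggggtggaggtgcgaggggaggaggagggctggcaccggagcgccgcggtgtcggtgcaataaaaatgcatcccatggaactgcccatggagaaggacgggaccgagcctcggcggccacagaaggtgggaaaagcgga
Plxna3 held 2 GC boxes in a run of 67.7% GC, and Ntn4 held 4 in a run of 72.0% GC. Neither held the E-box or the TATA motif.

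Other guidance genes and the signalling genes downstream were read from 2 lists. Over all genes, 8.63% were higher and 7.44% lower in adult than in pup hippocampus, and 11.2% and 9.38% in heart. Hippocampus was above heart for 8.27% and below for 7.43% in pups, and for 9.46% and 10.2% in adults. The age difference was higher in hippocampus than in heart for 1.23% and lower for 2.45%. Of 26 other cues and receptors, 0 were higher and 6 lower in adult than in pup hippocampus, with a median difference of -0.30 beside 0.10 over all genes. The largest were L1cam at -3.68 (adjusted p = 0.000931), an adhesion molecule that joins Nrp1 in the Sema3a receptor, Robo4 at -3.05 (adjusted p = 0.0077), the endothelial Robo, Islr2 at -2.97 (adjusted p = 0.00162) and Lrrc4c at -2.74 (adjusted p = 0.034), a netrin-G ligand. In the heart 2 were higher and 2 lower in adults: L1cam at 2.03 (adjusted p = 0.00584), Islr2 at 1.19 (adjusted p = 0.04), Kdr at -3.28 (adjusted p = 0.00225), the receptor of vascular growth factor, and Fzd3 at -0.83 (adjusted p = 0.0492). Hippocampus was above heart for 6 and below for 1 of the 26 in pups, led by L1cam at 5.91 (adjusted p = 5.02e-06), Islr2 at 5.31 (adjusted p = 7.32e-06) and Celsr3 at 5.06 (adjusted p = 1.86e-05), with Cxcl12 at -1.67 (adjusted p = 0.0472). In adults 3 were above and 1 below, Celsr3 at 3.26 (adjusted p = 0.00139), Fzd3 at 1.61 (adjusted p = 0.00471), Hgf at 1.45 (adjusted p = 0.0173) and Robo4 at -2.86 (adjusted p = 0.00996). The age difference was lower in hippocampus than in heart for L1cam (-5.72 (adjusted p = 0.00249)) and Islr2 (-4.16 (adjusted p = 0.00583)).

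Beside 8.63% higher and 7.44% lower among all genes, 0 of 45 measured genes of guidance signalling were higher and 4 lower in adult than in pup hippocampus. They were Dpysl5 at -3.44 (adjusted p = 0.000873), Crmp1 at -3.04 (adjusted p = 0.000657) and Dpysl2 at -1.53 (adjusted p = 0.042), collapsin response mediators through which Sema3a acts on microtubules, and the small GTPase Rac1 at -1.43 (adjusted p = 0.0103). In the heart 1 was higher and 6 were lower in adults (11.2% and 9.38% of all genes). The 4 largest of the lower ones were Rac1 at -2.26 (adjusted p = 0.00135), Dpysl2 at -2.19 (adjusted p = 0.00866), Rhoa at -2.09 (adjusted p = 0.00984) and Rock1 at -1.44 (adjusted p = 0.00586). Hippocampus was above heart for 7 and below for 3 of the 45 in pups (8.27% and 7.43% of all genes), led by Crmp1 at 6.38 (adjusted p = 1.1e-06), Dpysl5 at 3.35 (adjusted p = 8.1e-05) and Dpysl2 at 2.98 (adjusted p = 0.000799). In adults 7 were above and 1 was below (9.46% and 10.2% of all genes), led by Crmp1 at 4.06 (adjusted p = 0.000131) and Dpysl2 at 3.64 (adjusted p = 0.00125). The age difference was lower in hippocampus than in heart for Dpysl5 (-4.47 (adjusted p = 0.00417)) and Crmp1 (-2.31 (adjusted p = 0.0134)).

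Cell type markers also differed with age and tissue. Among all genes, 8.63% were higher and 7.44% lower in adult than in pup hippocampus, and 11.2% and 9.38% in heart. Between tissues, 8.27% were higher and 7.43% lower in hippocampus in pups, and 9.46% and 10.2% in adults. Of 14 neuron markers, 7 were higher and 0 lower in hippocampus than in heart at each age, with list means of 12.25 to 12.53 in adult hippocampi, 12.91 to 12.95 in pup hippocampi, 10.46 to 10.55 in adult hearts and 10.26 to 10.90 in pup hearts. Of 14 cardiomyocyte markers, 11 were lower in hippocampus than in heart in adults and 13 in pups, with list means of 9.04 to 9.17, 9.43 to 10.75, 13.06 to 13.37 and 14.21 to 14.77 in the same order of groups. With age, 0 cardiomyocyte markers were higher and 7 lower in adult than in pup heart. For neuron markers, 1 was higher and 5 lower in adult than in pup hippocampus, and 1 and 1 in heart. Of 10 immature neuron markers, 1 was higher and 5 lower in adult than in pup hippocampus (list means 11.19 to 11.39 in adult and 13.07 to 13.26 in pup hippocampi). In the heart 0 of these were higher and 3 lower in adults. Of 12 fibroblast and mural markers, 0 were higher and 8 lower in adult than in pup heart (list means 10.99 to 11.04 in adult and 12.81 to 13.48 in pup hearts). Of 12 endothelial markers, 1 was higher and 4 lower there (10.07 to 10.15 in adult and 10.91 to 10.94 in pup hearts). In the hippocampus, 1 fibroblast or mural marker was higher and 4 lower in adults, and 0 endothelial markers were higher and 2 lower. Of 4 blood cell markers, 3 were higher and 0 lower in adult than in pup heart (9.96 to 10.18 in adult and 8.62 to 9.22 in pup hearts), and 0 passed for hippocampus age. Of 11 thalamus and striatum markers, 4 were higher and 0 lower in adult than in pup hippocampus (11.09 to 11.29 in adult and 10.31 to 10.54 in pup hippocampi). In the heart 1 was higher and 0 were lower in adults. The part of these cells in the guidance results was not tested.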

How the data were processed

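The deposited table held log2 expression values of 45101 probe sets on 14 Affymetrix mouse arrays, which the authors summarised from probe intensities by the upper decile with RMA 2.0. The methods also name centring on each array's median and scaling by its 10 to 90 percentile range. In the deposited values array medians ran between 8.73 and 8.98 and these ranges between 6.30 and 6.59, so this scaling was not in them and was run as an alternative. How background was corrected and whether undetected probe sets were removed is not given in the sources used here. These deposited log2 values ran between 2.67 and 16, and their number of replicates, not a read depth, limits the precision (median SE over genes 0.34 for heart or hippocampus age, 0.30 for pup tissues, 0.37 for adult tissues, 0.48 for the difference of age differences).

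Probe sets naming 1 gene (34958, with 932 naming several and 9211 unnamed) were kept, and each of 18194 genes took the one with the highest mean over the arrays. RefSeq held 18033 of these genes by Entrez identifier, and 0 symbols changed. Technical arrays were averaged, and limma 3.58.1 in R 4.3.3 fitted 4 group means to 10 samples (lmFit and eBayes, 6 residual and 3.1 prior degrees of freedom). Tests were two-sided with Benjamini-Hochberg adjustment over all genes. Single probe sets came from a fit to all 34958. Promoters came from RefSeq. The fit was tested on simulated data.

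Every sample was given for up to 6 called genes per direction and comparison whose samples did not overlap, all genes called for the difference between tissues, and fixed ligand and receptor pairs. Other called genes got a difference and adjusted p. Up to 4 called genes per fixed list were named. The guidance genes and lists were chosen with earlier results of these data known. Alternatives were the methods' scaling, quantile normalization, other probe set rules, adult arrays as samples, a low value filter, the methods' t-test, a replicate block and each sample left out.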

Additional observations from a re-analysis of the deposited data

Results flagged for a closer look

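A difference between groups under the same contrast marked 4 guidance genes, which passed the test of the difference between tissues in the main fit. The difference of age differences, hippocampus minus heart, was -2.78 for Plxna3, -2.30 for Ntn4, -2.19 for Efnb3 and -1.95 for Epha5 on the log2 scale. Their adjusted p-values lay between 0.0158 and 0.044. Of these 4 calls, 0 were kept in every alternative fit. All 4 were lost with the replicate number as a block, and those of Epha5, Ntn4 and Plxna3 with the mean over probe sets. The other Ntn4 probe set gave 1.13 (adjusted p = 0.33), the opposite sign. Groups of 2 or 3 samples were too small for a test of single outlying samples.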

How the results depend on the processing

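Of 53 called pairs of gene and comparison, 13 stayed past the threshold in every alternative limma fit that tested the gene (Epha3 and Efnb3 for hippocampus age, Ntn4 and Plxna3 for heart age, Efnb3, Ntn1, Plxna3 and Sema6b between pup tissues, and Dcc, Ntn1, Ntn4, Robo2 and Sema6b between adult tissues; Robo2 was not tested with low values left out), and 35 were lost when some sample was left out. Values turned sign 5 times: Efnb1 to 0.15 and Epha7 to 0.21 for heart age and Plxnb3 to 0.89 between pup tissues with probe sets not marked as shared, and Sema5a to -0.06 between pup tissues and Sema3a to -0.20 between adult tissues with the mean over probe sets. The cause was not tested. Counts of called genes with 1 sample left out ran between 3 and 15 for hippocampus age (main 10), 5 and 19 for heart age (main 18), 5 and 13 between pup tissues (main 9), 8 and 14 between adult tissues (main 12), and 0 and 7 for the difference of age differences (main 4). The lowest came without adult hippocampus replicate 1, adult heart replicate 1, pup hippocampus replicate 2, each single adult sample, and either first adult replicate. Each fit without an adult sample, which left 1 sample in a group, called a smaller share of all genes than the main fit. Fits without 1 pup sample called 8.96% to 21.1% of all genes for hippocampus age, 17.1% to 23.2% for heart age and 10.6% to 20.1% between pup tissues. Between adult tissues they called 17% to 23.8%, and 1.62% to 5.51% for the difference of age differences. The methods' t-test called 6, 0, 4 and 0 genes in the first 4 comparisons at 0.05, beside 5.68%, 0.368%, 5.24% and 0% of all genes. It gave 24, 21, 12 and 19 at an unadjusted p under 0.05, which was not counted over all genes, and 0 in each at the methods' threshold. The mean over probe sets called 14 between pup tissues, beside 18.1% of all genes. With adult arrays as samples, 21 passed between adult tissues and 9 for the difference of age differences, beside 33.7% and 9.64% of all genes.

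Whether replicate numbers pair the samples could not be decided. Same-numbered hippocampus and heart samples had residual correlations of 0.203, -0.092 and 0.002 in pups and -0.06 in adults. Differently numbered pup samples ran between -0.159 and 0.168. With 2 adult samples per tissue the residuals mirror each other, so the adult value cannot show pairing. Residuals of 3 pup samples are constrained too. With the replicate number as a block, 7, 13, 10 and 11 genes passed in the first 4 comparisons, beside 10.7%, 15.5%, 12.9% and 15.8% of all genes. For the difference of age differences 0 passed (17 at an unadjusted p under 0.05), beside 0.247% of all genes. Array scaling by the methods or by quantiles moved the median of all genes by at most 0.13 (heart age, -0.13 with the methods' scaling) and kept each of these counts within 1.5 times.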
